A study of Mus musculus with 6 samples.

Results

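The genes examined here are the 10 kinases and scaffolds of the c-Jun N-terminal kinase (JNK) cascade named Mapk8, Mapk9, Mapk10, Map2k4, Map2k7, Map3k5, Map3k7, Map3k20, Mapk8ip1 and Mapk8ip3. They were chosen by symbol for their place in the cascade, and all 10 were found among the 45777 genes of the count table and the 16800 genes of the TPM tables. TPM, the normalised transcript level of the TPM tables, is a level scaled for transcript length and library total. The tissue was tibialis anterior (TA), a fast muscle of the lower leg, taken from male C57BL/6J mice that the labels give as 24 months old. There were 3 mice given vehicle (DMSO and Tween) and 3 mice given 5 mg/kg BML-260 by daily intraperitoneal injection for about 1 month, with 1 library per mouse. All 6 mice were wild type and of the old age group, with no young group and no untreated group among them. BML-260 is a small molecule used in the study to target DUSP22, a dual specificity phosphatase known to stimulate JNK signaling. The comparison of BML-260 with vehicle addresses whether the transcripts of the cascade differed in aged muscle after treatment. It measures RNA only and gives nothing on kinase phosphorylation or activity.

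JNK is a stress-activated MAP kinase. In its cascade, a MAP3 kinase that senses stress or cytokine signals phosphorylates a MAP2 kinase, which then phosphorylates JNK on a threonine and a tyrosine separated by a proline, and scaffold proteins hold the kinases of the cascade together. In muscle, JNK is known for its response to contraction and mechanical load, and for phosphorylating FOXO3a, a transcription factor that drives genes of muscle atrophy.

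The codons of the activation loops are shown first, because they are the sites through which the signal passes from 1 tier of the cascade to the next and because they show how alike the related genes are at the level of the RNA. In the 3 JNK genes the capitals mark the threonine, proline and tyrosine codons that the MAP2 kinases phosphorylate at the first and last codon. The sequences are 5′ to 3′ on the coding strand of the GENCODE M21 transcripts, with positions in GRCm38 (mm10):
Mapk8: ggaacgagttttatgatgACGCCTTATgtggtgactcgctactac
Mapk9: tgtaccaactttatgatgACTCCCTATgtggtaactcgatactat
Mapk10: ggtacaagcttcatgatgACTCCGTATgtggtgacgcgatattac

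The Mapk8 stretch lies at chr14:33392985-33393029 on the minus strand (codons 183 to 185, exon 6 of 12). The Mapk9 stretch lies at chr11:49872812-49872856 on the plus strand (codons 183 to 185, exon 6 of 12). The Mapk10 stretch lies at chr5:102989663-102989707 on the minus strand (codons 221 to 223, exon 8 of 14). Each of the 3 genes held these codons once, searched in frame and on the coding strand only as ACN, CCN and then TAT or TAC. Of 21599 coding sequences, 3.73% held them at least once. Within the 45 bases shown, Mapk8 and Mapk9 differed at 10 bases, and Mapk10 differed from each at 9 bases.

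For the MAP2 kinases the capitals mark the stretch of codons from the serine to the threonine that MAP3 kinases phosphorylate (serine, any codon, alanine, lysine, threonine):
Map2k4: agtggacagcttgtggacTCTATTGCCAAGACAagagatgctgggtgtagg
Map2k7: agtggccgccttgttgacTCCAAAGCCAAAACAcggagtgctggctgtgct

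The Map2k4 stretch lies at chr11:65706996-65707046 on the minus strand (codons 255 to 259, exon 7 of 11). The Map2k7 stretch lies at chr8:4244544-4244594 on the plus strand (codons 271 to 275, exon 7 of 11). They differed at 16 of 51 bases, and 0.644% of the coding sequences held these codons. Over their whole coding sequences the 3 JNK genes were between 75.4% and 75.8% identical in pairs, and Map2k4 and Map2k7 were 60.8% identical. The longest identical run between 2 of the JNK transcripts was 23 bases, and between the MAP2 kinase transcripts 12 bases. How the authors' counting treated reads that map to more than 1 place is not given in the sources used here.

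The libraries held between 39522890 and 56998875 counts. Genes with too few counts were left out by the filter of edgeR, which kept 16188 genes and all 10 members. After Benjamini-Hochberg adjustment in edgeR, 0 of these 16188 genes had an adjusted p under 0.05, while 966 (5.97%) were under 0.05 before adjustment. DESeq2, on the same counts, gave 95 genes with an adjusted p under 0.05, none of them a member. The threshold used for calls below was an unadjusted p under 0.05 together with a change of 1.3-fold or more, which called 931 genes (5.75%), 145 of them (0.896%) higher and 786 (4.86%) lower with BML-260. The third vehicle library stood apart. Its TMM factor, a scaling factor for library composition, was 1.20, while the other libraries were between 0.914 and 1.02. The defining transcripts of muscle fibers were abundant throughout, with summed TPM of 7 markers between 71072 and 101685. Summed macrophage markers were 43.7, 37.7 and 149 TPM with vehicle and between 29.1 and 34.0 TPM with BML-260, and 5 of 6 were lower at the threshold. Summed neutrophil markers, for the 4 of 5 listed in TPM, were 165, 23.8 and 804 TPM with vehicle and between 6.92 and 12.1 TPM with BML-260. In the count test, 5 of 5 were lower at the threshold. The third vehicle library was also the highest of all libraries in summed fibroblast, endothelial, Schwann cell, adipocyte and satellite cell markers. Of the tested markers, 1 of 5 for fibroblasts was lower at the threshold. None was called for endothelial cells (0 of 5), Schwann cells (0 of 6), adipocytes (0 of 3) or satellite cells (0 of 4). The part of these cells in the values of the cascade was not tested. In whole muscle, fewer cells of a type and less RNA per cell cannot be told apart.

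The cascade was expressed at every tier, and its levels differed far more between genes than between the treatments. Averaged over the 6 libraries, the highest level was that of Map3k20, with 182 TPM ± 45.5 (SD, n = 6). The MAP2 kinases and Map3k7 followed, with 33.1 TPM ± 2.52 for Map2k4, 25.3 TPM ± 2.33 for Map3k7 and 19.0 TPM ± 2.03 for Map2k7. Next came the JNK genes Mapk9 with 15.9 TPM ± 2.12 and Mapk8 with 12.8 TPM ± 0.934. The scaffold Mapk8ip3 had 5.21 TPM ± 1.27 and Map3k5 had 4.03 TPM ± 0.372. At the low end, Mapk8ip1 had 1.41 TPM ± 0.518 and Mapk10 had 0.122 TPM ± 0.0648. Each gene was above the next one in this order in 6 of 6 libraries, with the exception of Mapk9 over Mapk8, which held in 5 of 6. Mapk8ip3 and Map3k5, although in the same order in each library, had means that lay within 1 SD of Mapk8ip3. In TPM, the coefficients of variation across libraries were lowest for Mapk8 and Map2k4 (7.30% and 7.61%) and highest for Mapk8ip1 (36.7%) and Mapk10 (53.2%). The low spread of Mapk8 and Map2k4 did not hold in TMM-scaled CPM, the counts scaled by library total and TMM factor, where Mapk8 ran from 30.0 to 48.9 and Map2k4 from 52.5 to 84.1, while Map3k20 ran from 600 to 776.

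**Figure D1:**
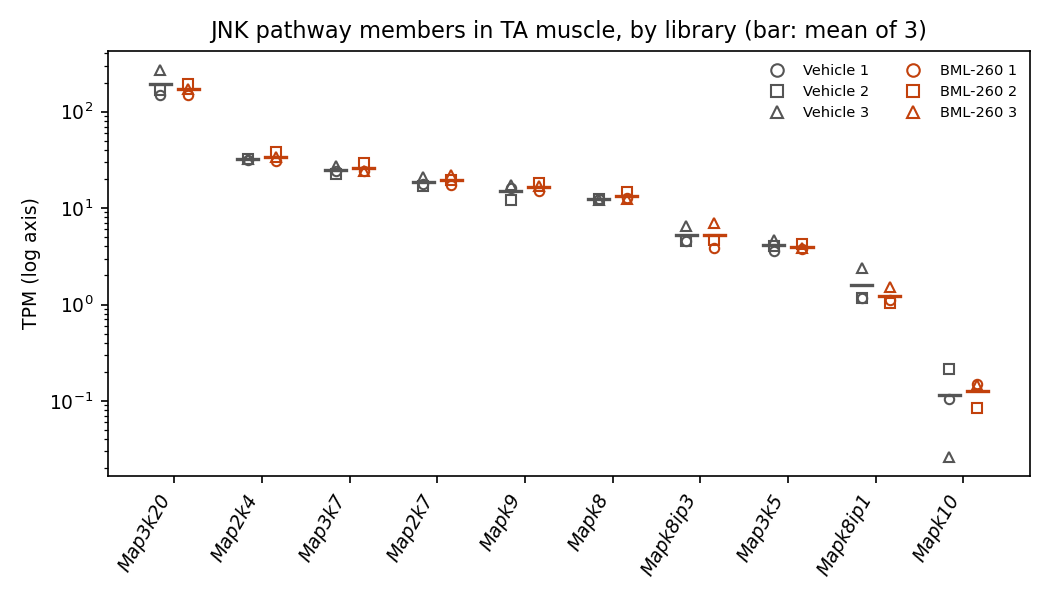
TPM (log axis) of the 10 genes in each of the 6 libraries, ordered by mean level, with vehicle in grey, BML-260 in orange, a marker shape per replicate number and a bar at the mean of 3. Map3k20 lies above all other members in every library, Mapk10 lies lowest, and the vehicle and BML-260 points of each gene overlap on this scale.

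The BML-260 group differed from the vehicle group by less than the test could call for all 10 genes. In edgeR with Benjamini-Hochberg adjustment, 0 of 10 members passed the threshold of fold change and unadjusted p, beside 5.75% of all tested genes, and their adjusted p-values lay between 0.788 and 0.994. The fitted log2 fold changes of BML-260 over vehicle lay between -0.15 (Mapk8ip1) and 0.29 (Mapk9), with a median of 0.20, beside a median of -0.0039 over all tested genes. The median size of the change, regardless of sign, was 0.20 for the members and 0.21 for all tested genes. Of the members, 8 of 10 had a log2 fold change above 0, beside 49.5% of all tested genes. Without the third vehicle library the members' median was 0.083, and 9 of 10 were above 0, beside 50.4% of all genes tested in that fit. On the log2(TPM + 1) scale, where the median of all genes shifted to -0.098, 6 of 10 members were above 0 and 8 of 10 were above that median. The groups did not overlap in TMM-scaled CPM for 2 of 10 members, Mapk9 and Map2k7, beside 12.1% of all tested genes. For both, every BML-260 library was above every vehicle library, which held for 846 (5.23%) of the 16188 tested genes.

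**Figure D2:**
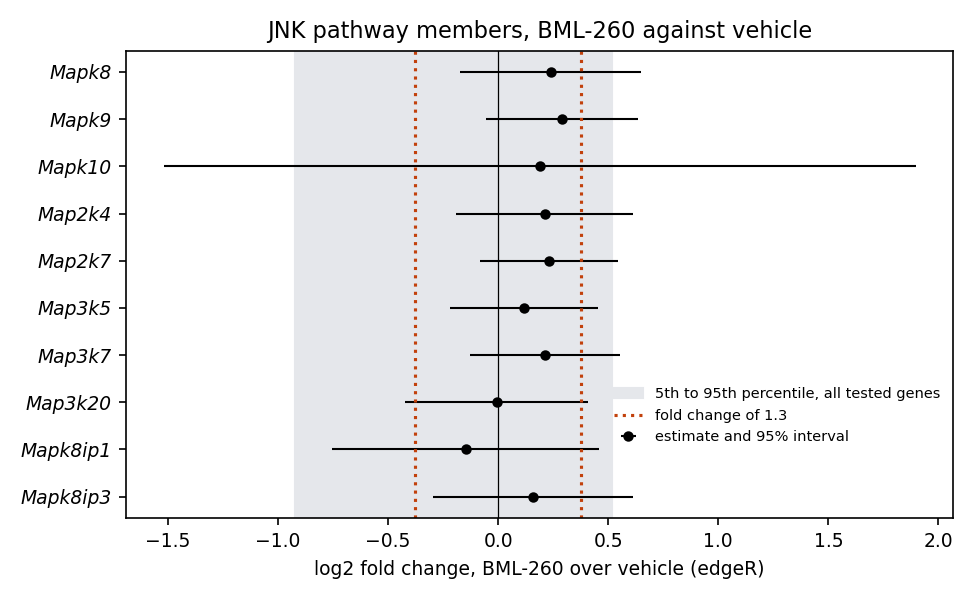
Log2 fold changes of BML-260 over vehicle for the 10 genes from edgeR (points) with 95% intervals (bars), beside the 5th to 95th percentile of all tested genes (grey band) and a fold change of 1.3 in either direction (dotted lines). All 10 intervals hold 0, and that of Mapk10, from -1.52 to 1.90, is the widest.

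The JNK genes themselves were represented almost wholly by Mapk8 and Mapk9, which encode the broadly expressed kinases JNK1 and JNK2. Mapk8 (gene 26419, 14:33377898-33447353 in GRCm38) had 12.5, 12.3 and 12.1 TPM in the 3 vehicle libraries and 12.8, 14.6 and 12.4 TPM in the 3 BML-260 libraries. On this scale the second BML-260 library was the highest and the groups overlapped. On the TMM-scaled CPM on which the test was run, Mapk8 had 43.0, 44.8 and 30.0 CPM with vehicle and 48.2, 48.9 and 41.8 CPM with BML-260. The third vehicle library was the lowest there, and the log2 fold change was 0.24 with an SE of 0.18 (95% interval -0.17 to 0.65, edgeR adjusted p = 0.789 after Benjamini-Hochberg adjustment). Without that library the value was 0.082.

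Mapk9 (gene 26420, 11:49846728-49886421) had 16.2, 12.2 and 17.2 TPM with vehicle and 14.9, 18.2 and 16.8 TPM with BML-260. The second vehicle library was the lowest and the groups overlapped in TPM. In CPM the values were 46.4, 36.8 and 35.1 with vehicle and 46.9, 50.5 and 47.3 with BML-260, so that all BML-260 libraries were higher, the nearest pair by a narrow margin. Its log2 fold change of 0.29 was the largest of the 10 (SE 0.15, 95% interval -0.053 to 0.63, edgeR adjusted p = 0.788 after Benjamini-Hochberg adjustment). Mapk9 was the only member to pass the threshold when any library was left out: without the first vehicle library it had a log2 fold change of 0.43 in edgeR with an unadjusted p of 0.0187. In that same fit 2223 of 16719 genes passed.

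Mapk10 (gene 26414, 5:102908547-103212604) encodes JNK3, which is known mainly from brain. It had 27, 42 and 6 counts with vehicle and 45, 19 and 29 counts with BML-260, which correspond to between 0.0263 and 0.215 TPM. The third vehicle library was the lowest by far, and the groups overlapped fully. Its rank among the 16800 genes listed in TPM was between 15057 and 16604. With an SE of 0.75, the log2 fold change of Mapk10 was 0.19, and the 95% interval ran from 0.349-fold to 3.72-fold. Leaving out 1 library at a time moved the value between -0.33 (without the third vehicle library) and 1.06 (without the second). Of 6 neuron markers, only Stmn2 had enough counts to be tested (lower with BML-260 at the threshold), and Nefl, Nefm and Rbfox3 had 0 counts in every library.

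The share of each JNK gene in their summed TPM, which was between 24.7 and 33.0 per library, differed little between the groups. Mapk8 made up 44.8% ± 4.34 (SD, n = 3) with vehicle and 44.2% ± 1.87 (n = 3) with BML-260, a difference of -0.692 percentage points (two-sided exact permutation p = 0.9). Mapk9 made up 54.7% ± 4.73 and 55.4% ± 1.87 (exact permutation p = 0.9, n = 3 each). Mapk10 made up 0.442% ± 0.395 and 0.435% ± 0.156 (exact permutation p = 1, n = 3 each). With 3 libraries against 3, this test cannot give a p under 0.1. Each difference was smaller than the spread within either group.

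Of the other MAP kinase genes, Mapk12, which encodes the muscle-rich p38 gamma, had 82.0 TPM ± 11.9, and Mapk14 for p38 alpha had 42.8 TPM ± 4.76 (SD, n = 6), both above each JNK gene in every library. These and the other genes outside the 10 that are named here for their levels were chosen after their values were seen.

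At the tier above, Map2k4 and Map2k7 encode MKK4 and MKK7, the dual specificity kinases that phosphorylate JNK. MKK4 can also phosphorylate p38, whereas MKK7 acts on JNK. Map2k4 (gene 26398, 11:65688244-65788359) had 31.9, 32.3 and 32.1 TPM with vehicle and 30.9, 37.9 and 33.8 TPM with BML-260. The vehicle libraries were nearly equal and lay inside the range of the BML-260 libraries. Map2k4 CPM were 73.2, 78.2 and 52.5 with vehicle and 76.7, 84.1 and 75.4 with BML-260, with the third vehicle library lowest. For Map2k4 the log2 fold change was 0.21 with an SE of 0.18 (95% interval -0.19 to 0.61, edgeR adjusted p = 0.796 after Benjamini-Hochberg adjustment), and 0.060 without that library.

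Map2k7 (gene 26400, 8:4238740-4247897) had 17.9, 16.8 and 20.9 TPM with vehicle and 17.3, 19.3 and 21.8 TPM with BML-260. In TPM the third library was the highest of each group and the groups overlapped. Map2k7 CPM were 36.5, 37.4 and 31.4 with vehicle and 40.3, 39.0 and 44.3 with BML-260, and here the groups did not overlap. For Map2k7 the log2 fold change was 0.23 with an SE of 0.14, and the 95% interval of the fold was 0.945 to 1.46 (edgeR adjusted p = 0.788 after Benjamini-Hochberg adjustment). It remained above 0 with each library left out in turn, between 0.16 and 0.28.

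The balance of the MAP2 kinases differed by less than the spread within the groups. The ratio of Map2k4 to Map2k7 in TPM was 1.78, 1.92 and 1.53 with vehicle and 1.79, 1.96 and 1.55 with BML-260. Map2k4 was thus the higher of the pair in every library, and libraries with the same replicate number had close ratios. The group means were 1.74 ± 0.194 and 1.77 ± 0.208 (SD, n = 3 each, two-sided exact permutation p = 0.7). Among 7 MAP2 kinase genes, Map2k4 held ranks 3 to 5 and Map2k7 ranks 5 to 6.

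The MAP3 kinase tier was dominated by Map3k20, which encodes ZAK, a kinase that responds to stalled ribosomes and, in muscle, to mechanical load. Map3k20 (gene 65964, 2:72285637-72442610) had 149, 166 and 269 TPM with vehicle and 147, 191 and 171 TPM with BML-260. The third vehicle library was the highest of all 6, and the other vehicle libraries lay within the BML-260 range. In CPM the values were 600, 705 and 776 with vehicle and 652, 746 and 673 with BML-260. The BML-260 libraries lay inside the range of the vehicle libraries, and the log2 fold change was -0.0069 with an SE of 0.18 (95% interval of the fold 0.745 to 1.33, edgeR adjusted p = 0.994 after Benjamini-Hochberg adjustment). Its sign changed with the library left out, from -0.099 to 0.085. By TPM it ranked between 374 and 503 of the 16800 listed genes.

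Map3k20 was also far above every other MAP3 kinase of the list. Among 17 MAP3 kinase genes it held between 56.5% and 62.8% of the summed TPM and ranked first in every library. The second was Taok1, a TAO kinase, with 31.0 TPM ± 4.83, and the third was Map3k7, each at the same rank in all 6 libraries. The level of Map3k20 was between 5.34 and 6.95 times that of Taok1 and between 6.05 and 9.90 times that of Map3k7 within a library. The highest of these ratios came from the third vehicle library in both cases.

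**Figure D3:**
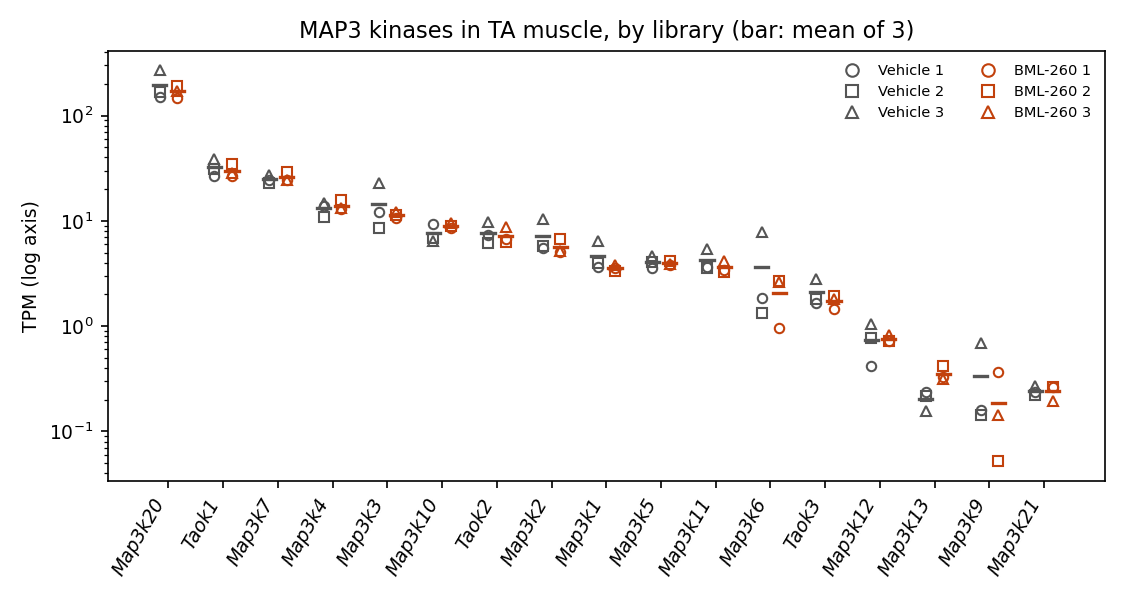
TPM (log axis) of 17 MAP3 kinase genes in each of the 6 libraries, ordered by mean level, with vehicle in grey, BML-260 in orange, a marker shape per replicate number and a bar at the mean of 3. Map3k20 holds the highest rank, Taok1 the next and Map3k7 the one after that in every library, and Map3k5 lies among the genes at about 4 TPM.

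Map3k7 encodes TAK1, which takes signals from TNF, interleukin-1 and TGF-beta receptors to JNK, p38 and NF-kappaB. Map3k7 (gene 26409, 4:31963492-32023470) had 24.4, 22.7 and 27.2 TPM with vehicle and 24.3, 29.1 and 24.3 TPM with BML-260. The groups overlapped, and the second BML-260 library was the highest. Map3k7 CPM were 84.9, 83.2 and 68.3 with vehicle and 92.4, 97.7 and 83.9 with BML-260, where the third vehicle library was lowest. Treated over vehicle, the log2 fold change was 0.21 with an SE of 0.15 (95% interval -0.13 to 0.55, edgeR adjusted p = 0.788 after Benjamini-Hochberg adjustment) and stayed between 0.12 and 0.27 with any library left out.

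Map3k5 encodes ASK1, a kinase activated by oxidative stress when thioredoxin lets it go. Map3k5 (gene 26408, 10:19934101-20142750) was the lowest of the 3 MAP3 kinases, with 3.58, 4.07 and 4.65 TPM with vehicle and 3.80, 4.20 and 3.89 TPM with BML-260. The BML-260 libraries lay within the vehicle range. The CPM were 11.6, 13.7 and 10.8 with vehicle and 13.6, 13.3 and 12.4 with BML-260. The log2 fold change was 0.12 with an SE of 0.15 (95% interval -0.22 to 0.45, edgeR adjusted p = 0.841 after Benjamini-Hochberg adjustment), and it was -0.036 on the log2(TPM + 1) scale. Within the summed TPM of Map3k5, Map3k7 and Map3k20, the last made up 86.6% ± 2.65 with vehicle and 85.0% ± 0.940 with BML-260 (SD, n = 3 each, two-sided exact permutation p = 0.4).

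The scaffolds Mapk8ip1 (JIP1) and Mapk8ip3 (JIP3) bind JNK and its upstream kinases and link them to kinesin motors. Mapk8ip1 (gene 19099, 2:92383671-92401346) had 1.18, 1.18 and 2.41 TPM with vehicle and 1.12, 1.04 and 1.54 TPM with BML-260, from 90 to 215 counts per library. The third library was the highest of each group. The CPM were 2.73 ± 0.607 with vehicle and 2.48 ± 0.513 with BML-260 (SD, n = 3 each), and the groups overlapped. The log2 fold change was -0.15 with an SE of 0.26 (95% interval -0.75 to 0.46, edgeR adjusted p = 0.889 after Benjamini-Hochberg adjustment), and it was 0.056 without the third vehicle library.

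Mapk8ip3 (gene 30957, 17:24897506-24936977) had 4.56, 4.53 and 6.56 TPM with vehicle and 3.86, 4.71 and 7.01 TPM with BML-260. Again the third library was the highest of each group, and the groups overlapped. The CPM were 15.3, 16.1 and 15.7 with vehicle and 14.2, 15.3 and 23.2 with BML-260. The log2 fold change of 0.16 (SE 0.20, 95% interval -0.30 to 0.61, edgeR adjusted p = 0.842 after Benjamini-Hochberg adjustment) rested on the third BML-260 library, without which it was -0.092. It was -0.021 on the log2(TPM + 1) scale. The end of Mapk8ip3 overlaps Nme3 (17:24896500-24897531), a protein-coding gene with between 110 and 211 counts. Only reads in the shared bases may be split between these genes, where the counting did not use strand.

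Mapk8ip3 was above Mapk8ip1 in every library, and the ratio of their TPM was 3.88, 3.85 and 2.72 with vehicle and 3.46, 4.52 and 4.57 with BML-260. The group means were 3.48 ± 0.658 and 4.18 ± 0.628 (SD, n = 3 each, two-sided exact permutation p = 0.3), a difference close to the spread within the groups. Both were far below the related scaffold Spag9 (JIP4), which had 98.8 TPM ± 18.7 and held between 87.7% and 91.9% of the summed TPM of 6 scaffold genes. Spag9 was between 13.1 and 23.0 times as high as Mapk8ip3 within a library.

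**Figure D4:**
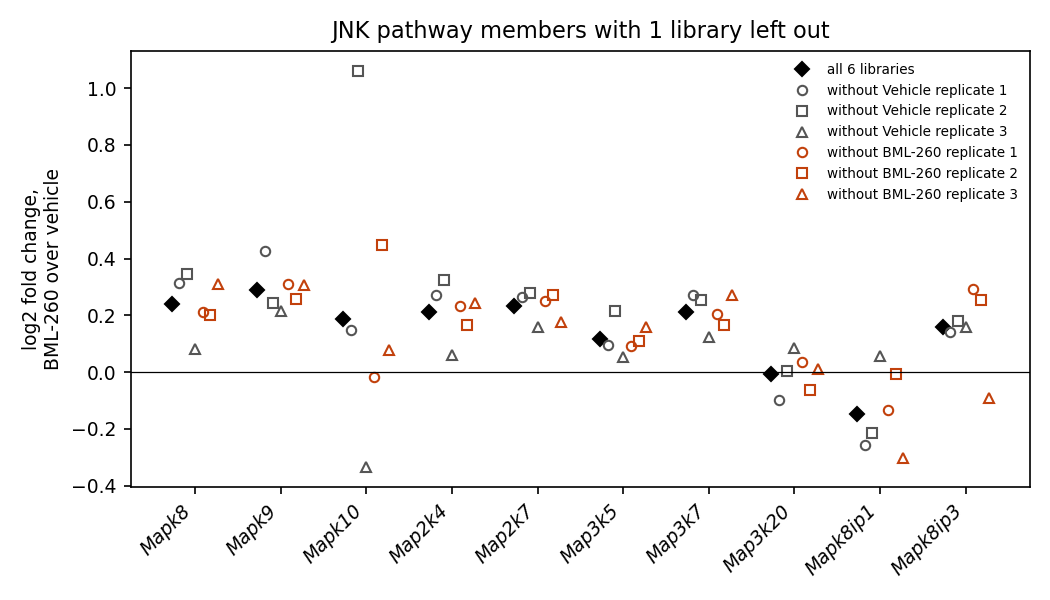
Log2 fold change of BML-260 over vehicle in edgeR for the 10 genes with all 6 libraries (black diamonds) and with each library left out in turn (open markers, grey for vehicle and orange for BML-260, a shape per replicate number). The values of Mapk10 run from -0.33 to 1.06, while those of Map2k7 stay between 0.16 and 0.28.

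The wider cascade was examined through 56 further genes listed by role, of which 55 were tested and Mapk13 was not. Of these, 33 had a log2 fold change above 0 and 22 below it, and at the threshold 0 were called higher and 1 lower, beside 0.896% and 4.86% of all tested genes. Their median log2 fold change was 0.038. By role, 8 of 14 other MAP3 kinases, 4 of 7 MAP4 kinases, 5 of 6 partners of TAK1 and ASK1 and 2 of 4 other scaffolds were above 0. The same held for 1 of 6 JNK substrates, 4 of 6 phosphatases listed with JNK, 4 of 7 other MAP kinases and 5 of 5 other MAP2 kinases. Those 4 phosphatases include Dusp22, which is known to stimulate JNK signaling and whose sign turned on the log2(TPM + 1) scale. The groups did not overlap in CPM for 4 of the 55 genes, beside 12.1% of all tested genes.

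The gene called lower was Txn1, which encodes thioredoxin, the redox protein that holds ASK1 inactive. Txn1 had 58.5, 52.5 and 102 TPM with vehicle and 38.6, 56.6 and 42.4 TPM with BML-260. In TPM the third vehicle library was the highest and the groups overlapped. Txn1 CPM were 37.5, 35.5 and 46.7 with vehicle and 27.1, 35.0 and 26.5 with BML-260, with no overlap. For Txn1 the log2 fold change was -0.43 with an SE of 0.17 (95% interval -0.83 to -0.041), with an unadjusted p of 0.0343 in edgeR and an adjusted p of 0.788 after Benjamini-Hochberg adjustment. The call was lost without the third vehicle library, where the value was -0.30, and without the first (-0.37) or the third BML-260 library (-0.36).

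Dusp22, the gene of the phosphatase that BML-260 is used to target, had 35.1, 36.9 and 32.7 TPM with vehicle and 32.0, 35.1 and 25.6 TPM with BML-260. The third library was the lowest of each group. In CPM the values were 38.4, 32.4 and 19.6 with vehicle and 38.1, 37.5 and 30.0 with BML-260. The fitted log2 fold change was 0.23 with an SE of 0.24 (95% interval -0.33 to 0.78, edgeR adjusted p = 0.823 after Benjamini-Hochberg adjustment), and its sign turned to -0.18 on the log2(TPM + 1) scale. Counts per TPM, set relative to the median gene of each library, varied between libraries by 1.44-fold for Dusp22 and by at most 1.06-fold for the 10 members. Its counts and its TPM therefore do not track each other across libraries, and neither direction is relied on here.

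Jun encodes the transcription factor c-Jun, the substrate that gave JNK its name. Jun had 44.9, 47.6 and 80.2 TPM with vehicle and 39.4, 50.1 and 53.5 TPM with BML-260, and the third vehicle library was the highest. Its log2 fold change was -0.085 with an SE of 0.15 (edgeR adjusted p = 0.889 after Benjamini-Hochberg adjustment), and 0.014 without that library. Foxo3, the gene of FOXO3a, had 9.61, 11.2 and 30.7 TPM with vehicle and 8.98, 12.7 and 12.3 TPM with BML-260. The third vehicle library again stood above the others, while the remaining libraries overlapped. The log2 fold change of Foxo3 was -0.33 with an SE of 0.30 (edgeR adjusted p = 0.802 after Benjamini-Hochberg adjustment), and 0.12 without that library.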

How the data were processed

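Libraries were made from total RNA with a stranded kit, 1 per mouse. Per the labels and the submitters' processing notes, the authors used StringTie 2.1.3b, Bowtie2 2.3.4.1, Trimmomatic 0.38 and HISAT2 2.1.0 with mm10. The annotation release and the handling of strand are not given in the sources used here. The authors deposited raw counts per gene, without normalization, and TPM per gene, scaled for length and library total. Counts and TPM were joined by gene identifier.

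Counts were tested in R 4.3.3 with edgeR 4.0.16 (filterByExpr, TMM, quasi-likelihood F-test, Benjamini-Hochberg adjustment over 16188 genes, 99.9% of counts). The SE was the size of the log2 fold change divided by the square root of F. The p-values set the difference between the groups against the spread between mice. Composition ratios were compared by exact permutation. Alternatives used DESeq2 1.42.0 and limma 3.58.1 (voom with sample quality weights, and trend on log2(TPM + 1) or log2(TPM + 0.1) of the tested genes listed in TPM). Of these fits, only that of edgeR with TMM was tried on simulated counts. Gene positions are from RefSeq GRCm38.p6 and coding sequences from GENCODE M21. Python 3.11.15 with matplotlib 3.10.9 made the figures.

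The members and lists were chosen with earlier results of these data known. All 10 members were named, and of the wider list each gene past the threshold, Dusp22, Jun and Foxo3. Protein sequences were not used here. Some genes of the wider list are counted but not reported singly here.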

Additional observations from a re-analysis of the deposited data

How the results depend on the processing

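None of the 10 members passed the threshold under RLE or upper quartile scaling, without a filter, with at least 10 counts in every library (9 members tested), with DESeq2, with voom or on log2 TPM, and with 1 library left out 0 to 1 passed (Mapk9 without the first vehicle library). The members above 0 ranged from 6 (log2 TPM) to 9 (voom). Over all genes, 1 had an adjusted p under 0.05 without a filter, 1 with at least 10 counts, 1 with voom, 95 with DESeq2 and 0 to 9 with 1 library left out. At the threshold, 1416 genes were called without a filter, 503 on log2(TPM + 1), 1021 with DESeq2 and 503 to 2223 with 1 library left out. Of the wider list, 2 genes passed with RLE, upper quartile scaling, at least 10 counts or DESeq2, 3 without a filter, 0 with voom or on either log2 TPM scale, and 0 to 11 with 1 library left out.

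Signs turned for Map3k5 (-0.036 and -0.042 on log2 TPM with 1 and 0.1 added), Mapk8ip3 (-0.021 and -0.028), Dusp22 (-0.18 and -0.18) and Map3k20 (0.026 with voom). With 1 library left out, signs turned for Mapk10 (-0.33 to 1.06), Map3k20 (-0.099 to 0.085), Mapk8ip1 (-0.30 to 0.056), Mapk8ip3 (-0.092 to 0.29), Jun (-0.17 to 0.014), Foxo3 (-0.55 to 0.12) and Dusp22 (-0.0054 to 0.44). None of these was called, and the cause was not tested. The call of Txn1 was also lost with voom (-0.35, a fold under 1.3), on log2 TPM (-0.58 and -0.59) and with the replicate block (-0.44), where its size was not smaller than in the report except with voom.

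Whether libraries with the same replicate number shared a step or batch is not given in the labels and cannot be told from these values. Deviations of same-numbered libraries correlated weakly, at 0.162, 0.0541 and 0.110. Those of differently numbered libraries correlated between -0.124 and -0.0206, so each library correlated best with its own number. Because deviations were taken from the group mean, a positive correlation in one pair forces a negative one in another. The negative values are therefore not separate evidence of a match by number. With the replicate block, 0 of 10 members and 3 genes of the wider list were called (Jund, Map3k13 and Tab2), and 1057 of all genes, of which 736 were shared with the 931.

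Without the third vehicle library, the ratio of BML-260 to vehicle in summed marker TPM moved from 0.402 to 0.757 for macrophages, 0.0267 to 0.0936 for neutrophils, 0.641 to 1.63 for Schwann cells and 0.267 to 1.25 for adipocytes. Mapk10 had 6 to 45 counts, and its lowest count came from one of the deeper libraries. Each group held 3 mice.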
